A study of Mus musculus with 14 samples.

Results

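MicroRNA levels in luminal progenitor cells were set against those in MaSC/basal cells of the mouse mammary gland, over 6 of the 14 profiled samples: luminal progenitor samples 1 to 3 and MaSC/basal samples 1 to 3. The samples were chosen by their labels, and each luminal progenitor sample came from the same mouse pool as the MaSC/basal sample of the same number. The luminal progenitors were sorted as CD29lo CD24+ CD61+ cells and the MaSC/basal cells as CD29hi CD24+ cells, both from untreated adult FVB/N mice whose glands were pooled over several animals. The MaSC/basal gate holds mammary stem cells, basal progenitors and mature myoepithelial cells together, so that its values are averages over these cells. Mature luminal cells (CD29lo CD24+ CD61-) of the same 3 pools were used as a further comparison. The series also holds 4 stromal samples and a MaSC/basal sample 4 without luminal partners. MicroRNAs were measured by real-time PCR on 2 rodent array plates, and 347 of 584 probes (264 of plate A and 83 of plate B) had normalized values of 2 or more in 3 or more of the 6 samples and were tested. Of the other 237 probes, 195 were undetected in all 6 samples and 42 were detected in some.

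MicroRNAs are short RNAs that are cut from hairpin precursors and loaded into Argonaute proteins, where the seed, bases 2 to 8, pairs with messenger RNAs that are then repressed. Many lie in clusters that are transcribed as a single long RNA, and each hairpin gives a guide strand and a less stable passenger strand, marked with an asterisk in the older names used here. In the mammary gland, the inner luminal layer lines the ducts and makes milk, and CD61+ luminal cells are enriched for clonogenic progenitors. The outer basal layer holds the stem cell activity and the contractile myoepithelium, which expresses smooth muscle genes.

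Mature sequences are given for the miRNAs on which the results turn, 5′ to 3′, with the seed in capitals. They were read from RefSeq (GRCm38.p6), to which 199 of the 347 tested probes were matched and 148 were not. The first set was lower in luminal progenitors and is shown to set basal miRNAs beside each other, among which miR-221 shares its seed with miR-222 and miR-99a with miR-100.
miR-204: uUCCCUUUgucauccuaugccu
miR-205: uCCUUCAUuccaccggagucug
miR-218: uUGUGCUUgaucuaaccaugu
miR-34b-3p: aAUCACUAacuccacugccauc
miR-221: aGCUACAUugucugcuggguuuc
miR-222: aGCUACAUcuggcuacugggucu
miR-99a: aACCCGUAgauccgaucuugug
miR-100: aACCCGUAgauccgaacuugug
miR-301a: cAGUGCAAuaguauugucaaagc

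The second set was higher in luminal progenitors and is shown because it holds members of 2 clusters, in which miR-291a-3p, miR-294 and miR-295 share the seed AAGUGCU, beside the singly encoded miR-148a, miR-34a and miR-210.
miR-503: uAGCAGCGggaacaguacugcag
miR-450a-5p: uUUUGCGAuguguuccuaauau
miR-542-3p: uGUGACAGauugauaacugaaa
miR-291a-3p: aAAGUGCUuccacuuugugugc
miR-294: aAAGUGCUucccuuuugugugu
miR-295: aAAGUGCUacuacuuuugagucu
miR-148a: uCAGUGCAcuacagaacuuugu
miR-34a: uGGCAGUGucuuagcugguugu
miR-210: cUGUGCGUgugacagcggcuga

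The third set is shown because its members share a seed with a miRNA called in the opposite direction.
miR-146a: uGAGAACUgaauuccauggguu
miR-146b: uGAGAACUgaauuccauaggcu
miR-125b-5p: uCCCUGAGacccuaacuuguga
miR-351: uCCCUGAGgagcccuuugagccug
miR-16: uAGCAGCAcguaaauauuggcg
miR-15a: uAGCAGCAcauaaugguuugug
miR-322: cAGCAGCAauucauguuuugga

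The number of detected miRNA assays, those with a threshold cycle (Ct) under 40, was 349, 340 and 338 in the luminal progenitor samples, against 350, 346 and 366 in the MaSC/basal samples (exact permutation test, two-sided, p = 0.2, where 0.1 is the smallest possible). Values are the deposited log2 expression values, on which a difference of 1 is a 2-fold difference, and they compare samples for a given assay but not assays with each other. The epithelial miR-200 family and miR-183 cluster were detected in all 6 samples, and the contractile-cell miRNAs miR-143 and miR-145 separated the sorted populations as labelled in pools 1 to 3. MaSC/basal sample 4 stood apart. Its profile correlated with the luminal progenitor samples at 0.92 to 0.95 and with the mature luminal samples at 0.95 to 0.96, against 0.85 to 0.88 with the other MaSC/basal samples (Pearson's r across 305 probes, as a description). Its miR-143 value was 19.42, at the level of the luminal samples. It is shown apart here. It has no luminal partner and so cannot enter the paired comparison. In a fit without pools its addition reduced the number of called probes from 141 to 42 (22 higher and 20 lower). With pool as a random block and sample 4 added, 156 were called (73 higher and 83 lower), against 173 without it.

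Of the 347 probes, 176 differed between luminal progenitor and MaSC/basal cells at an adjusted p under 0.05 (50.7%), 80 being higher in luminal progenitors (23.1%) and 96 lower (27.7%). The counts for lists and clusters below are to be read against these shares. P-values came from limma's moderated test with mouse pool as a block and were adjusted by the method of Benjamini and Hochberg over the 347 probes. All 176 had the same sign in the 3 pools, which selection by a test with pool as a block favours. For 162 of them the 3 luminal progenitor values did not overlap the 3 MaSC/basal values, against 192 probes without overlap among all tested (55.3%). The called differences were larger on the lower side, with a median size of 2.20 on the log2 scale for lower and 1.58 for higher probes, and 27 lower and 19 higher probes differed by over 16-fold. Relative to U6 RNA alone, 32 probes were higher and 169 lower, and the median of all probes shifted by -0.94 on the log2 scale. U6 itself had plate A Ct values of 11.90, 12.40 and 12.95 in luminal progenitor samples 1 to 3, against 13.16, 14.19 and 12.44 in MaSC/basal samples. Any difference in U6 enters every probe under this scaling. Without any normalization 28 were higher and 70 lower, with a shift of -0.14, while median centring and quantile normalization shifted the median by 0.34 and 0.36. Of 121 named and called probes, 73 kept call and direction under all 4 of these scalings, while 29 did not relative to U6 alone, 3 after median centring, 44 without any normalization and 18 after quantile normalization. Among these 4 scalings, the calls of let-7i, miR-16, miR-195, miR-206, miR-140, miR-193b and miR-197 were lost only without any normalization (adjusted p of 0.053 to 0.18). Without the samples of pool 1, 98 probes were called, and without those of pool 2, 115.

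**Figure D1:**
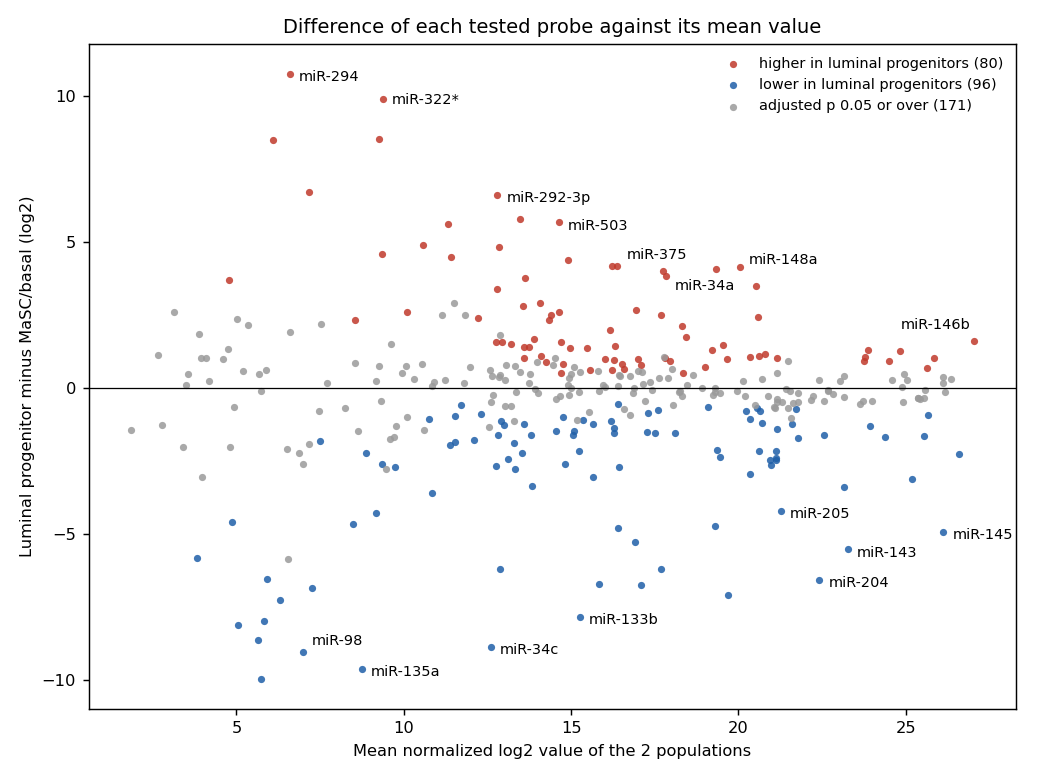
Log2 difference of luminal progenitor minus MaSC/basal cells (vertical axis) against the mean normalized log2 value over the 6 samples (horizontal axis), with each point a probe of the 347 tested and colour marking the 80 called higher and 96 called lower. The large differences lie on both sides of 0, and more of those over 16-fold are lower in luminal progenitors (27) than higher (19).

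The miRNAs of contractile cells were lower in luminal progenitors. In sorted bulk samples, fewer cells of a type and less RNA per cell cannot be told apart. miR-143 and miR-145, a pair that promotes the contractile state of smooth muscle, both passed the test. miR-143 had values of 20.55, 20.49 and 20.47 in luminal progenitor samples, against 25.59, 26.65 and 25.85 in MaSC/basal samples. The groups were far apart and the luminal progenitor samples nearly identical, and the difference was -5.53 ± 0.25 (SE), or 46.1-fold lower (adjusted p = 4.6e-05). miR-145 averaged 23.65 ± 0.23 in luminal progenitors and 28.60 ± 0.57 in MaSC/basal cells (SD, n = 3 each), 30.8-fold lower (adjusted p = 4.6e-05). All 5 probes for the skeletal and cardiac muscle miRNAs were lower as well, with a median of -6.74, against -0.10 over all probes. miR-133a, which acts in muscle differentiation, was 138-fold lower and miR-1, which does likewise, 105-fold lower (adjusted p = 4.8e-05 and 0.00015). miR-206 was the exception in size at -1.23 ± 0.38, and its call (adjusted p = 0.041) was lost on leaving out luminal progenitor sample 1, 2 or 3, MaSC/basal sample 1 or 3, or mature luminal sample 1 or 3, with an adjusted p of up to 0.14.

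miR-204, which in other epithelia keeps cells in a differentiated state, measured 19.14, 18.61 and 19.63 in luminal progenitors, against 25.65, 25.48 and 26.00 in MaSC/basal cells. No luminal progenitor sample came within 5 log2 units of a MaSC/basal sample, and the fold was 95.9 lower (adjusted p = 3.7e-05). miR-205, a basal epithelial miRNA that acts with miR-200 against Zeb factors, had 18.78, 19.32 and 19.38 in luminal progenitors and 22.88, 23.91 and 23.35 in MaSC/basal cells. These groups did not overlap either, with a difference of -4.22 ± 0.40 (adjusted p = 0.00057). miR-221 and miR-222, which repress the cell-cycle inhibitor p27 and lie together on the X chromosome (chrX:19146294-19146971), were 7.79- and 8.65-fold lower (adjusted p = 0.00014 and 0.00043).

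miR-218, encoded in the Slit genes, averaged 16.92 ± 0.35 in luminal progenitors and 21.65 ± 0.19 in MaSC/basal cells (SD, n = 3 each), a difference of -4.73 (adjusted p = 6.4e-05), and its passenger strand miR-218-2* differed by -2.70. miR-135b measured 14.23, 13.37 and 14.42 in luminal progenitors, against 19.22, 18.04 and 19.20 in MaSC/basal cells, and differed by -4.81 ± 0.19 (adjusted p = 4.4e-05). Sample 2 was the lowest of its group in both populations. Its relative miR-135a differed by -9.63 ± 1.37 (adjusted p = 0.0029), with luminal progenitor values of 8.09, 1.30 and 2.43, against a narrow 13.31 to 13.88 in MaSC/basal cells. The spread among luminal progenitors was that of sample 1 (Ct of 32.977) against samples 2 and 3, which were near the detection limit.

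The miR-34 family divided. miR-34a, the p53-induced member encoded on its own, was higher in luminal progenitors at 19.83, 19.74 and 19.64, against 15.99, 15.60 and 16.15 in MaSC/basal cells, 14.2-fold (adjusted p = 0.00037). The members of the separate miR-34b/c hairpin cluster (chr9:51103034-51103645) were all lower. miR-34c had 8.97, 8.08 and 7.42 in luminal progenitors and 17.09, 17.30 and 16.70 in MaSC/basal cells, a difference of -8.88 ± 0.44 (adjusted p = 5.9e-05). miR-34b-3p and miR-34c* differed by -6.19 and -5.28, so the 3 probes of the cluster were lower by 38.7-fold or more. miR-449a, which shares the miR-34a seed, was not called (-1.91 ± 2.15, adjusted p = 0.5). miR-34c was not matched to RefSeq, so its seed was not compared with that of miR-34a here.

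**Figure D2:**
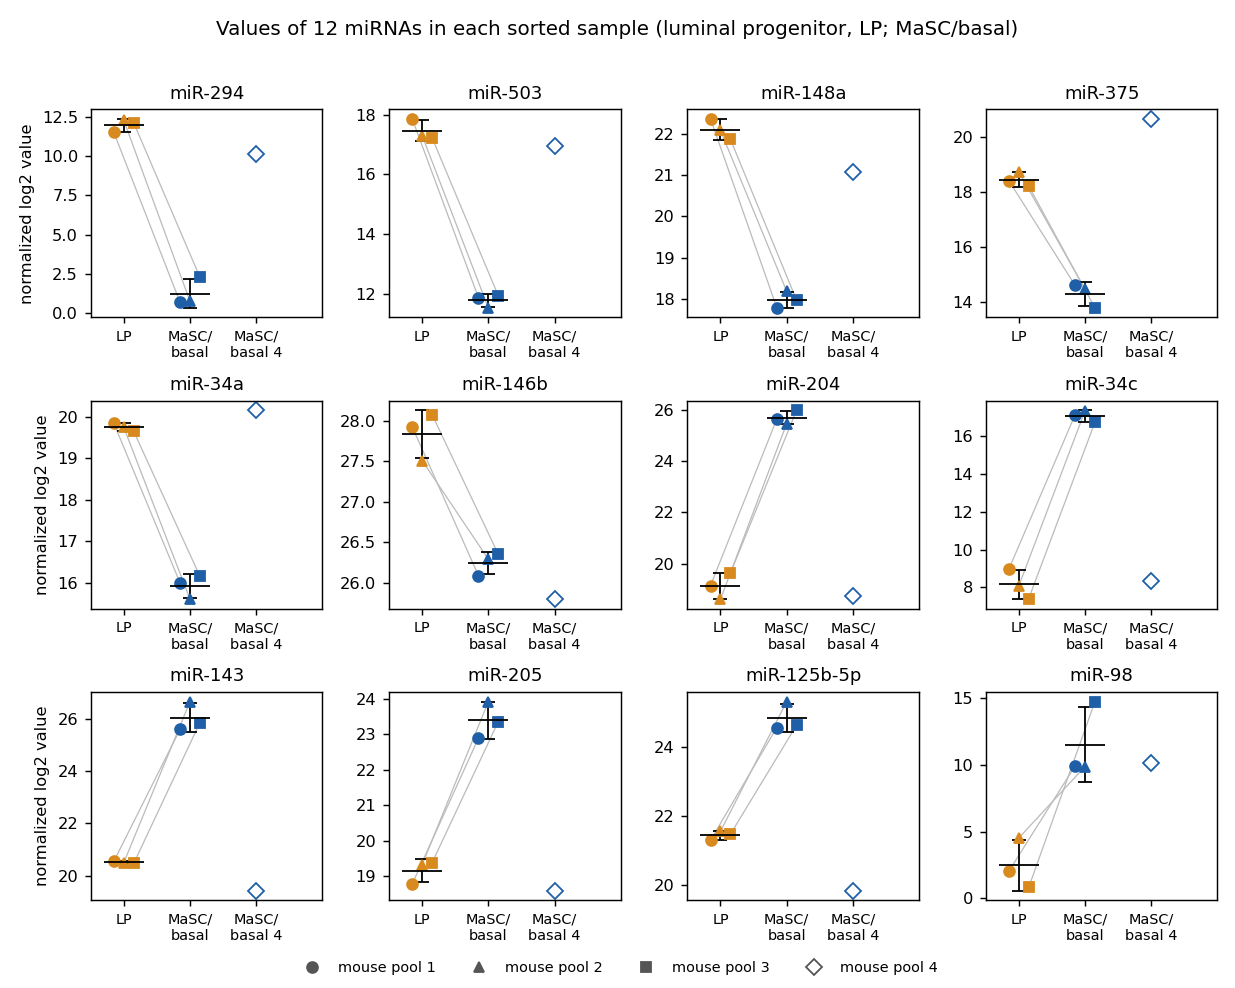
Normalized log2 value (vertical axis) of 12 miRNAs in each luminal progenitor sample, each MaSC/basal sample of pools 1 to 3 and MaSC/basal sample 4 (hollow), with marker shapes for the mouse pool, lines between samples of a pool and bars for the mean ± SD over 3 samples. The groups do not overlap for any of the 12, and sample 4 lies apart from the other MaSC/basal samples for miR-143 (19.42), miR-204 (18.72), miR-34a (20.15) and miR-375 (20.68).

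In the clusters that join miR-99 or miR-100 with let-7 and miR-125, and which are found together in stem and progenitor cells of other tissues, 4 of 7 listed probes were lower and 0 higher. Over all tested probes 27.7% were lower and 23.1% higher. miR-125b-5p had 21.30, 21.56 and 21.48 in luminal progenitors, against 24.57, 25.32 and 24.64 in MaSC/basal cells, and was 10.5-fold lower (adjusted p = 7.8e-05). All 3 MaSC/basal values were above every luminal progenitor value. miR-100 and miR-99a, which differ in a single base (U16A, miR-99a to miR-100, counted from the 5′ end), were 5.58- and 4.53-fold lower. let-7e, -0.92 ± 0.22 (adjusted p = 0.018), was not lower under every scaling, since its difference was 0.044 after median centring, and let-7c at -0.15 was not called and was 0.88 after median centring. let-7e also lost its call without luminal progenitor sample 1 or 2 or MaSC/basal sample 1 or 3 (adjusted p of up to 0.073). The passenger strands let-7c-1* and miR-99a* (rat assay) differed by -1.89 and -2.44.

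Over the 9 let-7 family probes, which repress Lin28 and Ras transcripts, 3 were lower, where 27.7% of all tested probes were lower. The list's median of -0.33 turned to 0.26 after median centring and to 0.39 after quantile normalization. let-7i was 3.30-fold lower (adjusted p = 0.0021). miR-98 was the family's outlier. It was undetected in luminal progenitor sample 3 and had Ct values of 38.698 and 36.41 in samples 1 and 2, giving normalized values of 2.04, 4.53 and 0.83, against 9.93, 9.88 and 14.74 in MaSC/basal samples. MaSC/basal sample 3 was well above its partners, and without it the difference was -7.05, against -9.05 with it (adjusted p = 0.0084 and 0.0062). Mature luminal cells averaged 14.48, so that luminal progenitors were the low population for this assay (-12.01 against mature luminal cells, adjusted p = 0.01).

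Members of further families were lower. Of the miR-130 and miR-301 family, miR-301a, miR-301b and miR-130a were 5.57-, 5.26- and 2.69-fold lower (adjusted p = 0.00048, 0.00023 and 0.0055), while miR-130b was not called (-0.17). After quantile normalization miR-130a differed by -0.60 and was not called, nor was it called without any normalization. The miR-23b/27b/24 cluster (chr13:63300484-63301275) had 4 of 4 probes lower, between -1.55 and -2.28. miR-24 is also made from a second copy beside miR-23a and miR-27a on chromosome 8, and neither of those was called (2.35 and -0.67). Among the miR-15/16 family, whose members restrain cyclins and Bcl2, miR-16, miR-195 and miR-497 were lower by 3.10-, 3.25- and 2.31-fold, although miR-497 differed by -0.26 after quantile normalization and was not called. miR-16 measured 24.87, 24.68 and 24.67 in luminal progenitors, against 26.46, 26.45 and 26.20 in MaSC/basal cells, without overlap. miR-15a was higher by 0.77 (adjusted p = 0.039), and this turned to -0.46 relative to U6 alone and lost its call on leaving out any luminal progenitor sample, MaSC/basal sample 1 or 2, or mature luminal sample 1 (adjusted p of up to 0.15).

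The imprinted Dlk1-Dio3 locus on chromosome 12 carries a large cluster of miRNAs expressed from the maternal chromosome. By RefSeq positions it held 33 tested probes over 163.562 kb, of which 22 were lower in luminal progenitors and 0 higher, against 27.7% lower and 23.1% higher over all tested probes. The median was -1.63, against -0.10 over all probes, and 2 had a positive difference. In the stretch chr12:109580233-109595388, 9 of 10 probes were lower, and in chr12:109709060-109743795, 12 of 22. The list of Dlk1-Dio3 miRNAs, drawn up by name, had 53 probes on the plates. Of these, 31 were tested and 22 did not pass the filter. A probe high in MaSC/basal cells alone could pass, so the counts of this locus are not independent of the filter. miR-136 measured 13.34, 13.03 and 12.62 in luminal progenitors, against 14.71, 14.74 and 14.38 in MaSC/basal cells (adjusted p = 0.0016). miR-127, which lies antisense to the imprinted gene Rtl1, measured 16.11, 16.50 and 16.89 in luminal progenitors and 17.99, 18.35 and 17.68 in MaSC/basal cells (adjusted p = 0.0071). Both miRNAs had moderate differences (-1.61 and -1.51) and groups that did not overlap. miR-431, detected in 1 of 3 luminal progenitor samples and all 3 MaSC/basal samples, and miR-433 differed by -8.62 and -2.68. miR-493 (-4.59, adjusted p = 0.021), detected in 1 luminal progenitor sample, lost its call without luminal progenitor sample 1 or 2 or MaSC/basal sample 2 or 3 (adjusted p of up to 0.082) and after quantile normalization (0.12). Against mature luminal cells the differences were -0.23 for miR-136, 0.37 for miR-127 and -0.28 for miR-433, none of which was called.

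Other lower probes included miR-224 (-3.05, adjusted p = 0.00015), whose rat assay gave -2.60, miR-335-5p with miR-335-3p, from the imprinted Mest gene (-2.70 and -2.17), miR-338-3p (-2.77), miR-298 (-3.36) and miR-455 (-2.23). The miR-125b passenger strand, miR-125b-3p, differed by -6.20 (adjusted p = 0.0032). miR-598 differed by -7.98 and was detected in 1 luminal progenitor sample. miR-802, miR-489 and miR-344 were undetected in all 3 luminal progenitor samples, and miR-802 had Ct values of 30.426, 31.434 and 28.582 in MaSC/basal samples. For miR-489 the MaSC/basal Ct values were 30.705, 35.402 and 29.993, and for miR-344 they were 34.157, 38.185 and 30.393. These 3 assays were the only tested ones detected in every MaSC/basal sample of pools 1 to 3 and in no luminal progenitor sample. There was none of the opposite kind. An assay read in a single population could pass the filter through that population alone, so these counts and calls are not independent of the filter. The call of miR-344 (adjusted p = 0.023) was lost without luminal progenitor sample 1 or 3 or MaSC/basal sample 1, with an adjusted p of up to 0.082.

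On the luminal progenitor side stood the miR-322 and miR-503 cluster of the X chromosome (chrX:53048154-53054349), whose members repress cyclins and Cdc25A. It was higher for 9 of 9 tested probes, by 3.76 to 9.88 on the log2 scale. These probes cover 6 precursors, with both mouse and rat assays for miR-351 and miR-450a. A further member, miR-450b-5p, did not pass the filter. miR-503 had values of 17.86, 17.29 and 17.23 in luminal progenitors, against 11.89, 11.55 and 11.95 in MaSC/basal cells, 50.7-fold higher (adjusted p = 3.7e-05). The 2 groups were compact and over 5 log2 units apart. miR-322, the mouse counterpart of human miR-424, had 19.87, 19.67 and 19.73 in luminal progenitors and 15.34, 15.49 and 16.43 in MaSC/basal cells (adjusted p = 0.00014). miR-450a-5p, miR-542-3p and miR-542-5p were 13.5-, 22.1- and 28.3-fold higher. The mouse and rat assays for miR-351 gave 5.78 ± 0.49 and 4.37 ± 0.35. The cluster kept 8 of 8 listed probes called higher under each of the 4 other scalings. Against mature luminal cells the 8 listed probes differed by 0.71 to 1.20, of which miR-503 (0.97, adjusted p = 0.022) and miR-450a-5p (1.20, adjusted p = 0.01) were called, and miR-322* differed by 3.19 (adjusted p = 0.051).

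**Figure D3:**
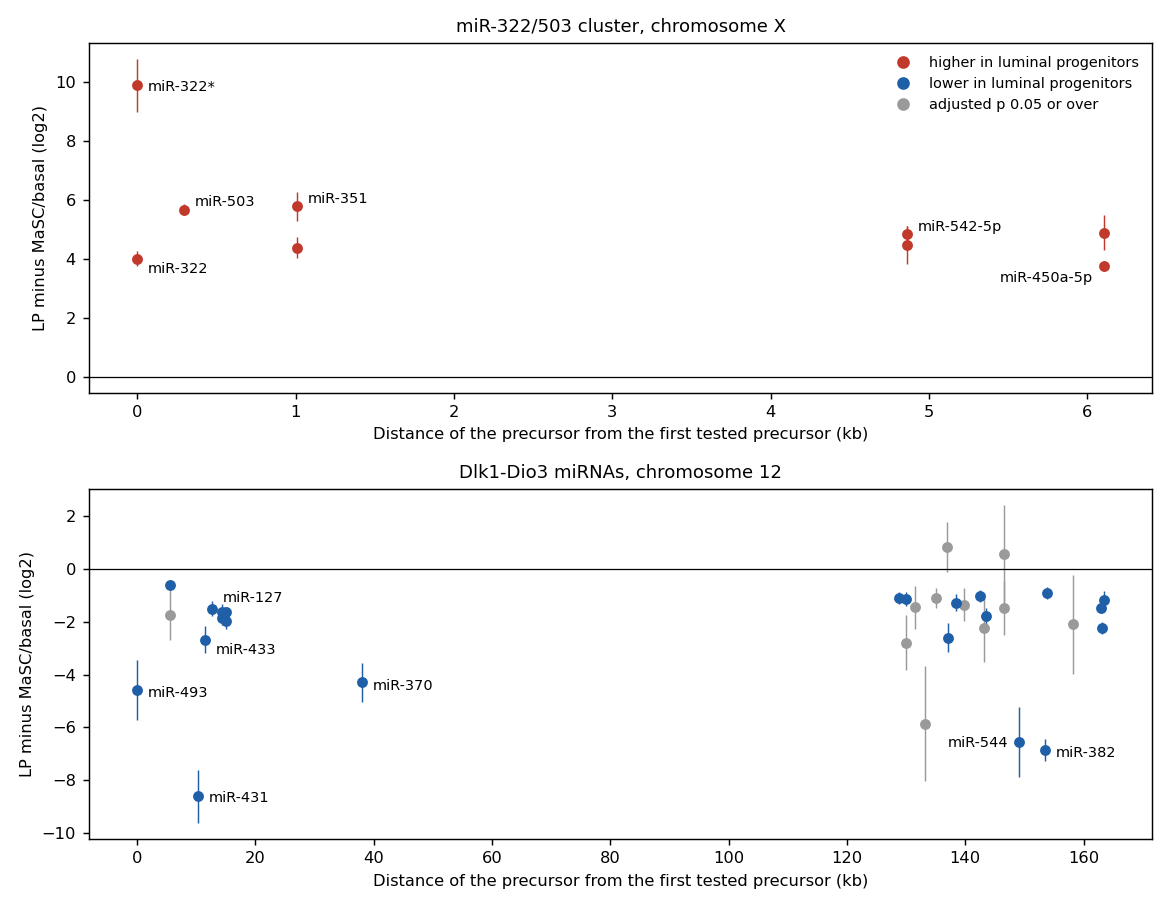
Log2 difference of luminal progenitor minus MaSC/basal cells with its SE (vertical axis) against distance from the first precursor in kb (horizontal axis), for the miR-322 and miR-503 cluster and the Dlk1-Dio3 locus. All 9 tested probes of the miR-322 and miR-503 cluster lie above 0, and of the 33 tested probes of the Dlk1-Dio3 locus 2 lie above 0.

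The miR-290 to miR-295 cluster, which in mouse embryonic stem cells promotes the cell cycle and pluripotency, was higher in luminal progenitors. The plates held 16 embryonic stem cell probes, of which 10 did not pass the filter. Of the 6 tested, 5 were higher, against 23.1% over all tested probes. Of these 5, 4 had a position in the reference, all within chr7:3218932-3220841. A probe high in luminal progenitors alone could pass the filter, so this count is not independent of it. miR-294 had Ct values of 29.49, 29.038 and 29.262 in luminal progenitors, while it was undetected in MaSC/basal samples 1 and 2 and had a Ct of 37.898 in sample 3. The luminal progenitor samples were thus alike and every MaSC/basal sample was at or near the limit (adjusted p = 3.7e-05). miR-295 measured 14.27, 13.96 and 14.15 in luminal progenitors and 7.28, 9.39 and 8.90 in MaSC/basal cells (5.60 ± 0.46, adjusted p = 0.00037). miR-291a-3p and miR-293 were detected in all luminal progenitor samples and in 1 and 2 of the 3 MaSC/basal samples, with adjusted p = 0.0017 and 0.0041. miR-302b, of the separate miR-302 cluster, was not called (2.16 ± 0.81, adjusted p = 0.072). For miR-294 the means were 11.97 in luminal progenitors and 1.24 in MaSC/basal cells, and the mature luminal mean of 10.03 lay between them.

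Among luminal miRNAs, miR-375, known from endocrine and luminal epithelial cells, had 18.42, 18.75 and 18.23 in luminal progenitors, against 14.61, 14.47 and 13.79 in MaSC/basal cells, 18.0-fold higher (adjusted p = 4.6e-05). miR-592 followed it closely, with 18.10, 18.74 and 18.04 in luminal progenitors and 14.44, 14.23 and 13.72 in MaSC/basal cells. For both, luminal progenitors lay between the other epithelial populations, being lower than mature luminal cells by 2.41 and 2.43 on the log2 scale (adjusted p = 0.0024 and 0.0064). miR-184, found in cornea and skin, was 16.6-fold higher than in MaSC/basal cells and lower than in mature luminal cells by 2.50. miR-203, which represses p63 in skin, was 5.33-fold higher (adjusted p = 0.00025). Its values were 21.78, 21.50 and 22.08 in luminal progenitors and 19.09, 19.21 and 19.81 in MaSC/basal cells. In the list of miRNAs of stratified epithelia, miR-205 therefore went the opposite way from miR-184 and miR-203.

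miR-148a, which is abundant in milk and targets DNA methyltransferase transcripts, measured 22.37, 22.08 and 21.87 in luminal progenitors and 17.79, 18.19 and 17.97 in MaSC/basal cells. The 17.4-fold difference (adjusted p = 0.00011) went with a difference of 8.51 for its passenger strand. miR-148b, of the same seed, differed by 0.52 (adjusted p = 0.043), but by -0.82 relative to U6 alone, and kept its call on leaving out a single sample only for mature luminal sample 3 (adjusted p of up to 0.14 for the others). miR-152 was not called (-0.41). miR-210, the main hypoxia-induced miRNA, had 22.26, 22.49 and 22.06 in luminal progenitors, against 18.74, 18.61 and 19.00 in MaSC/basal cells, 11.2-fold higher (adjusted p = 0.00012). miR-187, miR-339-5p, miR-340-5p and miR-425 were higher by 2.48, 1.97, 1.74 and 1.28. Relative to U6 alone miR-339-5p, miR-340-5p and miR-425 were at 0.77, 0.66 and 0.28 and were not called, nor were they without any normalization.

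The Clcn5 intron cluster on the X chromosome (chrX:7237683-7248497) had 6 of 7 tested probes higher, among them miR-362-3p, miR-500, miR-501-3p and miR-532-3p by 2.11 to 2.59. The probes for miR-188-3p and miR-501-5p did not pass the filter. Over all tested probes 23.1% were higher. miR-532-3p measured 19.36, 19.38 and 19.33 in luminal progenitors, against 17.49, 17.12 and 17.14 in MaSC/basal cells. Relative to U6 alone 1 probe of the cluster was called higher, although 5 of 7 differences were positive. miR-188-5p, higher by 0.80 (adjusted p = 0.035), was at -0.53 relative to U6 alone, and its call was lost without luminal progenitor sample 2 or 3, MaSC/basal sample 2 or 3, or mature luminal sample 1 or 2 (adjusted p of up to 0.13). The assays for miR-532-5p disagreed, the mouse assay giving -0.37 and the rat assay 2.82. The mouse assay read 27.45, 27.86 and 20.73 in luminal progenitors and 27.65, 29.94 and 19.54 in MaSC/basal cells, and so separated pool 3 from pools 1 and 2 rather than the populations. The rat assay lost its call without luminal progenitor sample 2 (adjusted p = 0.057), relative to U6 alone and without any normalization.

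The epithelial miR-200 family, which represses the Zeb factors, had 2 of 5 probes higher and a median of 0.68. Over all tested probes 23.1% were higher and the median was -0.10. After median centring and quantile normalization 4 of 5 were higher, with medians of 1.40 and 1.30, whereas relative to U6 alone none was higher and 1 was lower, with a median of 0.044. miR-200c measured 26.29, 26.19 and 26.54 in luminal progenitors and 25.34, 25.26 and 25.35 in MaSC/basal cells (adjusted p = 0.018), and miR-200b differed by 0.68 (adjusted p = 0.024). Neither call held on leaving out samples. miR-200c lost its call without luminal progenitor sample 1 or 3 or any MaSC/basal sample (adjusted p of up to 0.075), and miR-200b lost it without these or mature luminal sample 1 (up to 0.089). The passenger strands miR-200b* and miR-141* differed by 1.08 and 1.57, and by 0.31 and 0.39 with no call relative to U6 alone. None of the 3 tested members of the sensory miR-183 cluster was called, with differences between -0.02 and -0.27, but all 3 were lower relative to U6 alone. Of the miR-30 family, which is enriched in differentiated epithelium, miR-30d was higher by 1.02 (adjusted p = 0.0042), and of the collagen-repressing miR-29 family miR-29c was higher by 1.48 (adjusted p = 0.0043), but relative to U6 alone no member of either family was called and the miR-29 median was -0.21, against 0.97. After median centring all 5 miR-30 and all 3 miR-29 probes were called higher. In the proliferation-linked miR-17-92 cluster and its paralogs, of 11 probes miR-92a was higher (0.92) and miR-106b lower (-0.71, but 0.12 after quantile normalization), both with an adjusted p of 0.049. Over these 11, median centring gave 5 higher and 0 lower, and U6 alone 0 higher and 4 lower. miR-92a lost its call without any single sample other than mature luminal sample 3, and miR-106b without any other than luminal progenitor sample 1 (adjusted p of up to 0.13 and 0.17).

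Both probes of miR-7, a neuroendocrine and growth-restraining miRNA, were higher (1.56 and 1.48), but relative to U6 alone neither was called. Of the miR-193 and miR-365 list miR-193b was higher by 1.27 (adjusted p = 0.0031) and the other 2 were not called. Of 4 miRNAs of the Hox clusters miR-10a was higher by 1.15 (adjusted p = 0.01) and miR-10b, miR-196b and rat miR-196c were not called. Relative to U6 alone miR-10a was at 0.31 and not called, and the other 3 were lower. The 2 miR-181 and 3 miR-192/194 probes were not called, with differences between -0.46 and 0.64, and their medians of 0.58 and 0.35 turned to -0.69 and -0.84 relative to U6 alone. The liver miRNA miR-122 was higher by 4.56 ± 0.95 (adjusted p = 0.011), with 10.71, 12.61 and 11.53 in luminal progenitors and 5.27, 6.02 and 9.87 in MaSC/basal cells. These groups did not overlap, and both read weakly.

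**Figure D4:**
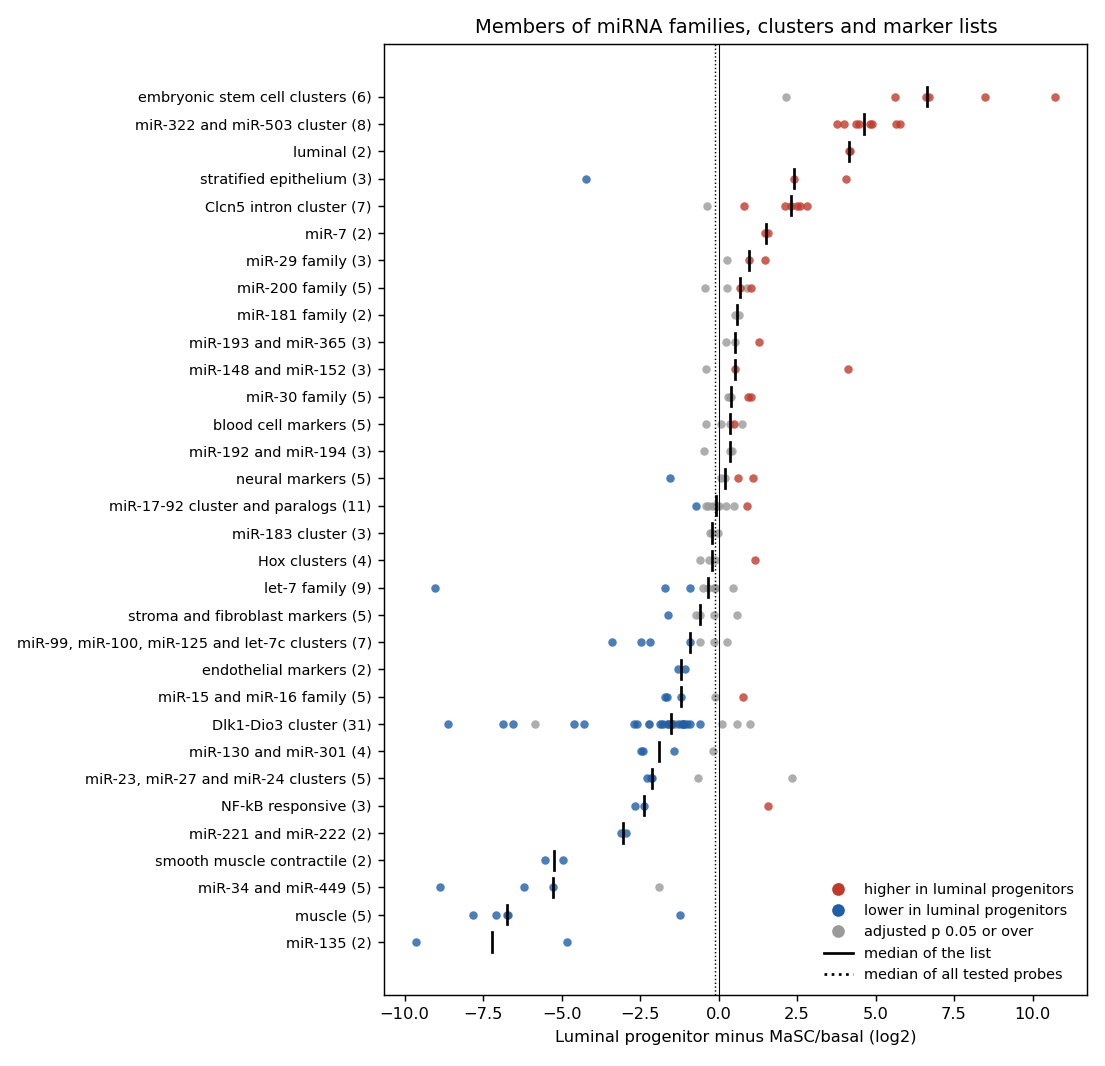
Log2 difference of luminal progenitor minus MaSC/basal cells (horizontal axis) for the probes of each miRNA list with at least 2 tested probes (vertical axis), with points for probes coloured by call and a line for the list median. The muscle, contractile and miR-135 lists lie wholly below 0 and the miR-322 and miR-503 and embryonic stem cell lists wholly above it, while the miR-183 cluster lies next to 0.

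Seeds shared between miRNAs were compared next, since members of a seed family can repress overlapping messages. Among the 199 probes matched to RefSeq, 27 seeds were carried by at least 2 miRNAs, 15 of these had at least 2 called probes, and in 11 of the 15 all calls went the same way. The other 4 held opposite calls. Over all tested probes 23.1% were higher and 27.7% lower, so 2 called probes with unrelated seeds would often go the same way too. Some seed groups, such as miR-221 and miR-222, are also neighbours in a cluster, so the 11 are not independent of the clusters. Probes not matched to RefSeq, such as miR-34c, are outside these counts, so seeds with opposite calls may be missed. Among the 4 was the seed of miR-146a and miR-146b, NF-kB-induced miRNAs that differ by G18A and U21C (miR-146a to miR-146b, counted from the 5′ end). miR-146a had 19.60, 19.09 and 20.21 in luminal progenitors, against 22.04, 21.80 and 23.01 in MaSC/basal cells, 6.30-fold lower (adjusted p = 0.00014). miR-146b had 27.92, 27.51 and 28.07 in luminal progenitors, against 26.09, 26.29 and 26.35 in MaSC/basal cells, 3.01-fold higher (adjusted p = 0.0046). Neither pair of groups overlapped, and how far each assay reads the other miRNA was not measured here. miR-155, also induced by NF-kB, went with miR-146a and was 5.19-fold lower.

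The seed CCCUGAG was carried by miR-125b-5p, lower by 10.5-fold, and by miR-351, higher by 54.9-fold, whereas miR-125a-5p with the same seed was not called (0.25, adjusted p = 0.54). The seed AGCAGCA was carried by miR-16, lower, and by miR-322 and miR-15a, higher, with the scaling limit given above for miR-15a. The seed AUGACAC was carried by miR-425, higher, and miR-489, lower. Of the clusters of precursors within 10 kb of each other, 35 held at least 2 tested precursors, 18 of them had at least 2 called probes, and in 16 of these all calls went the same way. The exceptions were the miR-15a/16 cluster on chromosome 14 and the miR-23a/27a/24 cluster on chromosome 8, each with a miRNA that is also made elsewhere. Both strands of a hairpin, and mouse and rat assays of a miRNA, were counted as separate probes. At the shares over all tested probes, unrelated calls would often go the same way too.

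A passenger strand named with an asterisk and its guide were both tested in 57 pairs, and 43 had the same sign. Strands named -5p and -3p were not paired, and a guide with several passenger assays was counted with each. In 17 pairs both strands were called, every time in the same direction, in 9 the guide alone, in 8 the passenger alone and in 23 neither. miR-322* (9.88, detected in 2 of 3 MaSC/basal samples) and miR-148a* had larger differences than their guides. miR-30c-2* was higher by 3.36 (adjusted p = 0.0051) although the guide miR-30c, which is also made from another precursor, was at 0.31 and not called. Among 11 miRNAs with both a mouse and a rat assay, matched by name or by RefSeq mature sequence, 9 pairs had the same sign, 5 were both called and none was called in opposite directions.

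Set against mature luminal cells in the same fit, luminal progenitors differed for 93 of 347 probes (26.8%), 51 higher (14.7%) and 42 lower (12.1%). Of the 80 probes higher than in MaSC/basal cells, 17 were also higher than in mature luminal cells, 7 were lower and 56 were not called. Of the 96 lower than in MaSC/basal cells, 24 were also lower than in mature luminal cells, 12 were higher and 60 were not called. The luminal progenitor values enter both comparisons, so these counts are not independent. miR-146b stood above both other populations, by 1.59 against MaSC/basal and 2.51 against mature luminal cells (adjusted p = 0.0046 and 0.0056). miR-292-3p was likewise above both, by 6.61 and 3.46. miR-197 was above both by 2.60 and 2.47, and miR-295 by 5.60 and 2.18. On the lower side, miR-133b and miR-1 were below mature luminal cells by 3.32 and 3.01 on the log2 scale, and miR-382 by 4.39. The reverse order was seen for miR-143, miR-204 and miR-125b-5p, which were lower than in MaSC/basal cells but higher than in mature luminal cells by 1.13, 1.18 and 1.32 (adjusted p = 0.031, 0.023 and 0.01).

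**Figure D5:**
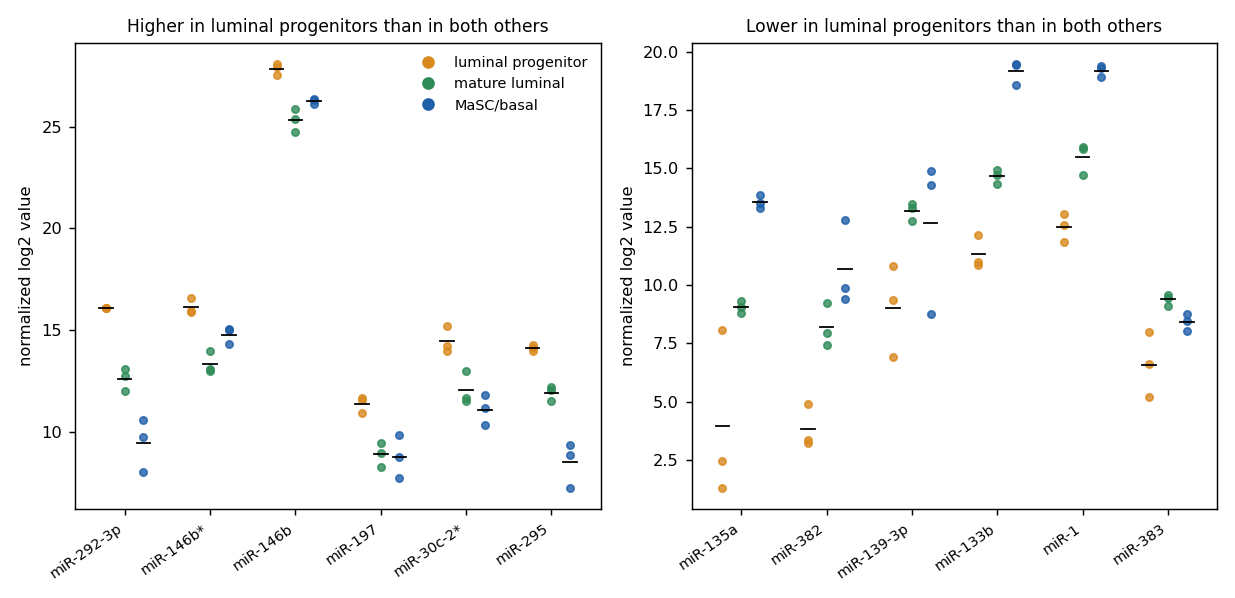
Normalized log2 value (vertical axis) in luminal progenitor, mature luminal and MaSC/basal samples of pools 1 to 3 for 6 miRNAs called higher and 6 called lower in luminal progenitors than in both others, with points for samples and short lines for their means. miR-146b is highest in luminal progenitors (27.51 to 28.07), and miR-1 and miR-133b are lowest in them.

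Markers of other cells that the gates could hold moved with some of these groups. Both endothelial probes were lower in luminal progenitors, miR-126-3p by 1.30 and miR-126-5p by 1.08 on the log2 scale. Their summed level (log2 of the linear sum) was 23.24 to 23.49 in luminal progenitors, against 24.57 to 24.78 in MaSC/basal cells. In mature luminal cells it was 24.10 to 24.78, so luminal progenitors were the low population. Neither probe was called after quantile normalization (a median of -0.39) or without any normalization. Such sums follow the strongest assay of a list, here miR-126-3p, and below miR-140, miR-150 and miR-138. Of 5 stromal and fibroblast probes 1 was lower, the cartilage miRNA miR-140 at -1.62 (adjusted p = 0.0016), and the sum was 21.88 to 22.14 in luminal progenitors and 23.23 to 23.74 in MaSC/basal cells. The fibroblast miRNAs miR-199a-3p and miR-214 were not called (-0.14 and 0.58). Of 5 blood cell probes 1 was higher, the myeloid miR-223 by 0.50 (adjusted p = 0.049), a difference that was -0.69 relative to U6 alone and lost its call without any single sample of the 9 (adjusted p of up to 0.15). The blood cell sum was 21.17 to 21.49 in luminal progenitors and 21.52 to 21.59 in MaSC/basal cells. Of 5 neural probes, miR-9 (1.09, but -0.21 relative to U6 alone) and miR-128a (0.62, but -0.69) were higher and miR-138 was lower (-1.56), and their sum was 17.79 to 18.05 in luminal progenitors and 18.66 to 19.57 in MaSC/basal cells. miR-9 lost its call without luminal progenitor sample 1 or 2, any MaSC/basal sample or mature luminal sample 2, and miR-128a without luminal progenitor sample 2 or 3, MaSC/basal sample 2 or 3 or mature luminal sample 1 or 2 (adjusted p of up to 0.12 and 0.10). Relative to U6 alone the medians of the blood cell and neural lists were -1.01 and -0.95, against 0.37 and 0.22, and 3 of 5 stromal probes were lower. The part of these markers in the results above was not tested.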

How the data were processed

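RNA from sorted mouse mammary cells was copied into cDNA with a primer for each miRNA, pre-amplified, and measured on TaqMan rodent array plates A and B. The authors deposited Ct values for 597 positions, of which 13 were controls, with 40 for undetected reactions. The authors also deposited log2 expression values for 584 probes, made by subtracting Ct from the maximum of 40 plus 0.5 and applying cyclic loess with U6 weighted up. Cyclic loess assumes that most probes do not differ between samples, so a shift of all miRNAs would be taken out of these values. A deposited table of the authors' fold changes and p-values was not used.

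Probes with a log2 value of 2 or more in at least 3 of the 6 luminal progenitor and MaSC/basal samples were fitted with lmFit and eBayes of limma 3.58.1 (R 4.3.3) over 9 epithelial samples, with mouse pool as a fixed block (4 residual and 1.49 prior degrees of freedom), and were called at a Benjamini-Hochberg adjusted p under 0.05. The labels give same-numbered samples the same mouse pool, and deviations of same-pool samples had a median correlation of 0.36 (9 pairs, 0.04 to 0.55), against -0.15 for other pairs. Each replicate is a pool of mice. An array of PCR reactions has no read depth, and 3 samples a population limit the precision. The fit was tested on simulated data.

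Named miRNAs were the 8 largest differences in each direction among called probes detected in all 6 samples. Called probes undetected in all 3 samples of the lower side were named too. So were members of miRNA lists, strand pairs, mouse and rat assays, shared seeds and the probes with the highest mean level. The rest were miRNAs that the authors name for mouse epithelium, such as miR-204, miR-205 and miR-375, and called probes with opposite differences from MaSC/basal in luminal progenitors and mature luminal cells. Samples, members and lists were chosen with earlier results of these data known. A further 38 probes, among them miR-136, miR-218, miR-30c-2* and miR-322*, were added after their values were seen. Sequences and positions are from RefSeq (GRCm38.p6). Alternatives varied the block, samples, scaling, filter, plates, floor for low values and test. Figures were drawn with matplotlib 3.10.9.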

Additional observations from a re-analysis of the deposited data

Results flagged for a closer look

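Over 127 named probes and the number of detected assays, 128 measures in all, 30 had a sample far from the 3 others of the MaSC/basal population when sample 4 was counted with samples 1 to 3. The threshold flags about 1 in 20 of values drawn alike. Most named probes were chosen among called ones and they share samples, so the 30 cannot be set against that rate. In 28 of the 30 the distant sample was MaSC/basal sample 4. It was low for miRNAs that were lower in luminal progenitors, with 19.42 for miR-143, 21.86 for miR-145, 18.72 for miR-204, 14.40 for miR-1, 16.96 for miR-133a, 12.65 for miR-133b, 8.41 for miR-135a, 17.38 for miR-218 and 1.25 for miR-218-2*. The same held for 14.30 for miR-34b-3p, 8.33 for miR-34c, 14.28 for miR-34c*, 19.84 for miR-125b-5p, 2.71 for miR-125b-3p, 18.90 for miR-100, 11.56 for miR-455 and 24.62 for let-7e. It was high for miRNAs that were higher in luminal progenitors, with 20.15 for miR-34a, 20.68 for miR-375, 19.81 for miR-592, 21.08 for miR-148a, 21.24 for miR-210, 16.95 for miR-503, 14.73 for miR-450a-5p, 10.17 for miR-294, 15.40 for miR-362-3p, 17.54 for miR-339-5p and 14.46 for miR-9*. Of the 80 higher and 96 lower probes, it lay on the MaSC/basal side of the midpoint for 20 and 21. The cause was not tested.

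The other values far from their group were miR-98 in MaSC/basal sample 3, at 14.74, and miR-139-3p in MaSC/basal sample 2, at 8.75. Without MaSC/basal sample 2 the call of miR-139-3p was kept, while it was lost without luminal progenitor sample 1, 2 or 3, MaSC/basal sample 1 or 3 or mature luminal sample 1 or 3 (adjusted p of up to 0.14).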

How the results depend on the processing

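Without the replicate block 141 probes were called (60 higher, 81 lower), and with pool as a random block 173, against 176. Adding MaSC/basal 4 without a block gave 42 (22 and 20), all among the 176. Adding it with pool as a random block gave 156 (73 and 83), and 149 of the 176 calls were kept. U6 alone gave 201 (32 higher, 169 lower), with 19 of the 176 calls changing sign, and no normalization 98 (28 higher). Plate B alone gave 19 (12 and 7), from 83 probes. A test against a 2-fold difference gave 86 (31 and 55). Leaving out 1 sample gave 141 to 175 (60 to 80 higher, 79 to 95 lower). Without pool 1, 98 were called (42 and 56), without pool 2, 115 (45 higher) and without pool 3, 151. Of the 176, 89 were called in the same direction under all 4 other scalings, 123 without each of the 9 samples in turn and 84 under both. Signs turned relative to U6 alone for miR-128a (-0.69), miR-148b (-0.82), miR-15a (-0.46), miR-188-5p (-0.53), miR-223 (-0.69), miR-29b (-0.30), miR-32 (-0.12) and miR-9 (-0.21), after median centring for let-7c (0.88) and let-7e (0.044), and after quantile normalization for miR-106b (0.12) and miR-30e* (-0.11). The cause was not tested. Of 121 named and called probes, 99 kept the call without any of the 9 samples in turn. Assays near a Ct of 40 bound a difference only loosely.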

Other observations

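Among tested probes with a RefSeq precursor position, of 42 on the X chromosome 20 were higher in luminal progenitors and 5 lower, and of 40 on chromosome 12, 2 were higher and 22 lower, against 23.1% higher and 27.7% lower over all tested probes. The X chromosome count includes the miR-322 and miR-503 and Clcn5 intron clusters, and the 22 lower probes of chromosome 12 all lie in the Dlk1-Dio3 locus, so members of a cluster are not independent of each other. Probes of a miRNA encoded on several chromosomes, such as miR-92a (14 and X), were counted on each. MaSC/basal sample 4 lay above the range of both populations for miR-532-5p, at 31.57, and miR-302b, at 16.03, among others. For miR-302b the luminal progenitor samples had 8.43, 10.28 and 0.56, and MaSC/basal samples 1 to 3 had 7.07, 5.53 and 0.18, so that pool 3 was undetected in both populations.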
